A study of Homo sapiens with 24 samples.

Results

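Interferon-stimulated genes are the antiviral and immune genes that cells switch on when they meet interferon. A list of 55 of them was followed here through the depletion of NF-κB subunits in L1236, an established line of Hodgkin lymphoma cells that derive from B cells. Members were listed by gene name, and 1 transcript cluster, the set of array probes that stands for 1 transcript, was taken per gene. Of the 55 genes, 54 had a cluster that names them alone, out of 18417 genes so represented in the series. GBP1 shares its cluster with GBP3 and GBP1P1 and was given no value.

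The study asked which genes depend on the canonical NF-κB dimer p50/RelA and which on the non-canonical dimer p52/RelB, by knockdown (KD) with siRNAs, which guide the cell to cut mRNAs of matching sequence. In experiment 1, NFKB1 siRNA (1 µM, 3 days) and RELA siRNA (500 nM, 2 days) were combined, and in experiment 2, RELB siRNA (1 µM, 3 days) and NFKB2 siRNA (500 nM, 2 days). RELA and NFKB2 siRNAs were added 1 day after their partners, and RNA was taken 1 day after the return to normal medium. Each experiment had its own control arm, called control 1 and control 2, which received non-targeting siRNA. Every arm held 6 arrays, made of 2 siRNA sequences in each of 3 biological replicates. All samples were L1236 with no stimulus named, so the values describe 1 line. Since the sources used here do not say whether the samples of 1 replicate had cultures of their own, p-values measure the spread between these arrays. In bulk RNA, fewer cells that express a gene and less of its mRNA per cell cannot be told apart.

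Interferons bind cell-surface receptors, whose kinases JAK1 and TYK2 activate STAT proteins. These join IRF9 in a complex that binds the interferon-stimulated response element (ISRE) in the promoters of interferon-stimulated genes, while interferon gamma acts through the GAS element. The gene products sense viral RNA, block its translation, degrade it, or modify other proteins. NF-κB dimers bind κB sites and take part in switching on IFNB1, the gene of interferon beta, together with interferon regulatory factors.

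The siRNAs that define the KDs are shown first, because the sequences of a pair later gave different values. They are listed 5′ to 3′ in the order in which the study lists them. The sources used here do not say which of a pair was sequence 1 on the arrays.
NFKB1, listed first: ccaaaguauaaagauauua
NFKB1, listed second: ggcucauguuuacagcuuu
RELA, listed first: cuuccaaguuccuauagaa
RELA, listed second: ggauugaggagaaacguaa
NFKB2, listed first: ucauugagcagauagucua
NFKB2, listed second: cugucaagaucuguaacua
RELB, listed first: guaggauucggaaaagauu
RELB, listed second: uggagaucaucgacgagua

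Promoter sequences were read for the genes, as windows of 300 bases that begin 250 bases before an annotated start (RefSeq, GRCh38.p14). Windows were at hand for 45 of the 55 genes. The ISRE core GAAANNGAAA, the GAS element TTCNNNGAA and the κB consensus were searched on both strands. An ISRE core stood in a window of 32 of the 45 genes (71.1%), against 4.38% of all 27305 genes with a window. GAS was found in 12 (26.7%, against 9.38%) and the κB consensus in 8 (17.8%, against 13.3%). A match describes the letters of the window and does not show that a factor binds there.

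The 8 genes with a κB match were IFIH1, OAS3, MX1, XAF1, DDX58, TRIM14, IFITM3 and BST2. The first 5 of these are shown because they fell after p50/RelA KD, as described in the next paragraphs; the following 4 carry an ISRE core without a κB match and either fell in both KDs (EPSTI1) or rose after p52/RelB KD (DTX3L, RTP4, IFIT3). Capitals mark ISRE cores and κB matches on the strand of the gene, so a core on the other strand reads TTTC first.
IFIH1, chr2:162318684-162318863, minus strand, from 179 bases before the start: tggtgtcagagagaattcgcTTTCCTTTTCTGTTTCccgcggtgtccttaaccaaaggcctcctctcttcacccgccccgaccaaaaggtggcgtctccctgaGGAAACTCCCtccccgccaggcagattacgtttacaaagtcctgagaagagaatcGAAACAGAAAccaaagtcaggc
OAS3, chr12:112938311-112938483, plus strand, from 163 bases before the start: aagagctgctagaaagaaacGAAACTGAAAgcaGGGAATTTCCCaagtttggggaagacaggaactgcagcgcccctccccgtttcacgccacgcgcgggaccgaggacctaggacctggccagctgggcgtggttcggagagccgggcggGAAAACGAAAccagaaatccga
MX1, chr21:41431834-41431999, plus strand, from 216 bases before the start: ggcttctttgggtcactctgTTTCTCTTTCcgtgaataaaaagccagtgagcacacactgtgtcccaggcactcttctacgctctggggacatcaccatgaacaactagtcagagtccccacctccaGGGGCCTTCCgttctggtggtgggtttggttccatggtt
XAF1, chr17:6755923-6755995, plus strand, from 123 bases before the start: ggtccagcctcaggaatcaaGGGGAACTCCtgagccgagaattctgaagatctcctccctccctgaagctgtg
DDX58, chr9:32526247-32526292, minus strand, from 96 bases before the start: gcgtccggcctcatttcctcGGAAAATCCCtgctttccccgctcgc
EPSTI1, chr13:42992270-42992311, minus strand, from 70 bases before the start: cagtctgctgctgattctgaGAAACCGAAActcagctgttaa
DTX3L, chr3:122564312-122564347, plus strand, from 26 bases before the start: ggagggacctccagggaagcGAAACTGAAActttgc
RTP4, chr3:187368323-187368388, plus strand, from 62 bases before the start: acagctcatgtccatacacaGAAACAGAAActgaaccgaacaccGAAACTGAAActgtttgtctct
IFIT3, chr10:89327821-89327946, plus strand, from 176 bases before the start: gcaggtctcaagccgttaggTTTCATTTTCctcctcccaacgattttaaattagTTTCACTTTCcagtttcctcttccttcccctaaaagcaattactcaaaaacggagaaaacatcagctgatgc

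In OAS3 the upstream ISRE core ended 134 bases before the start and the κB match began at 130, so that they lay side by side, and a further ISRE core began 12 bases before the start. IFIH1 held a κB match 76 bases before the start between 2 overlapping ISRE cores further upstream and 1 core close to the start. XAF1 and DDX58 held a κB match and no ISRE core. GAS matches overlapped the ISRE core in MX1 and EPSTI1. Other windows of MX1 and IFIT3, at further annotated starts, are not shown. The ISRE core of DTX3L began 6 bases before its annotated start and ran across it. PARP9 is transcribed in the opposite direction, and a window of PARP9 holds the same core, while its window at a further annotated start holds none.

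**Figure D1:**
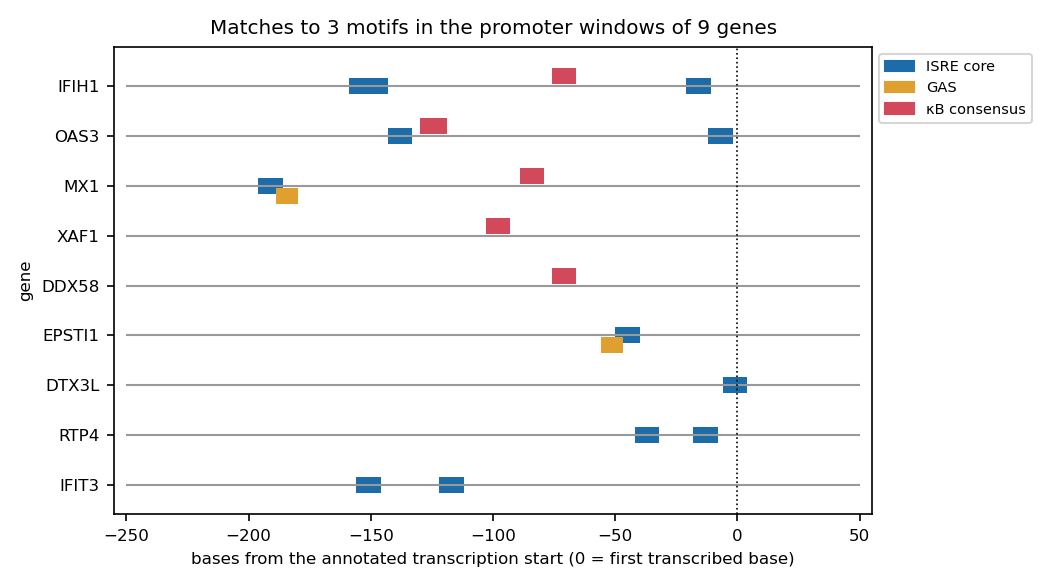
Matches to the ISRE core (blue), GAS (yellow) and the κB consensus (red) in the 300-base promoter windows of the 9 genes shown, by distance in bases from the annotated start. A κB match stands in the windows of IFIH1, OAS3, MX1, XAF1 and DDX58.

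The arrays were measured as log2 expression after RMA, a method that removes background, brings the arrays of a set to 1 distribution and summarizes the probes of a cluster. Experiment 1 had array medians of 6.94 to 6.99 and experiment 2 of 7.39 to 7.51, and levels were not compared across them. The siRNA targets fell in their own experiment, with KD minus control differences of -1.92 ± 0.12 for NFKB1, -1.39 ± 0.09 for RELA, -1.34 ± 0.04 for NFKB2 and -0.29 ± 0.05 for RELB (log2, SE, n = 6 per arm). NFKB2 also fell in p50/RelA KD (-0.19 ± 0.04), and NFKB1 rose in p52/RelB KD (0.15 ± 0.04). The array of p52/RelB KD with sequence 2 in replicate 3 stood apart, with a mean correlation of 0.987 to other arrays, against 0.995 to 0.998 for the other 23 arrays. For experiment 2, the counts of called genes of the list and the differences of some of them are therefore also given without it. The Hodgkin marker TNFRSF8, which encodes CD30, was at 9.21 in control 1 and 9.18 in control 2, and all 7 Hodgkin markers listed were tested. Of these, the chemokine genes CCL17 (-0.44 ± 0.04) and CCL22 (-0.75 ± 0.05) fell in p50/RelA KD, and CCL22 (-0.86 ± 0.08) and TRAF1 (-0.23 ± 0.06) in p52/RelB KD. Of 5 B cell identity genes tested, limma called 0 in p50/RelA KD and CD22 lower in p52/RelB KD (-0.30 ± 0.07). Of the listed markers of T and NK cells, myeloid cells, plasmacytoid dendritic cells and fibroblasts, 7 were tested in experiment 1 and 11 in experiment 2, and limma called 0 in either.

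No interferon is said to have been added to the cells. The signals of different probe sets do not rank genes by expression, and each gene was compared only with itself. A gene was tested when it reached 6 in more than 6 of the 12 arrays of an experiment, which 50 genes did in both experiments. TRIM22, an antiviral E3 ligase, did so in experiment 1 alone, and DDX60, RSAD2 and HERC6 in neither.

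After p50/RelA KD most of the genes had lower values, by small amounts. Of the 51 tested, 9 fell (17.6%), 0 rose and 42 were not called, where a call needs a limma adjusted p below 0.05 and a difference of at least 10%. Among all 14672 clusters tested, 0.825% were called lower and 0.245% higher. The calls rest on the pairing of replicates: without the replicate block limma called 0 of the 51 genes lower (20 with an unadjusted p below 0.05), against 0.334% of all clusters, and the methods' test on the deposited values also called 0 (9 with an unadjusted p below 0.05), against 0.102%. The KD minus control difference was below 0 for 47 of the 51 genes, with a median of -0.15 on the log2 scale, against 0.00 over all clusters tested, and a range from -0.56 to 0.15. The unadjusted p was under 0.05 for 29 of them, of which IFITM2 alone was above 0. The 9 that fell were the sensors IFIH1, DDX58 and DHX58, the RNA-activated synthetase OAS3, the GTPase MX1, TRIM22, the pro-apoptotic factor XAF1, and IFI35 and EPSTI1.

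OAS3 makes 2′-5′ oligoadenylates, which activate the RNA-degrading enzyme RNase L. Its control 1 arrays ran from 7.78 to 8.53 (median 8.04) and its p50/RelA KD arrays from 7.37 to 7.86 (median 7.50). The arms overlapped across replicates, but each KD array lay below the control mean of its own replicate, and the fall of 0.53 ± 0.06 (SE, n = 6 per arm, adjusted p = 0.000376) left 69.2% of control. Of the 9 genes, OAS3 alone stayed called whichever 1 array or replicate was left out. The other OAS genes, which are neighbours of OAS3 on chromosome 12 except for OASL, were at -0.38 (OAS2, adjusted p = 0.0564), -0.36 (OAS1, adjusted p = 0.129) and -0.16 (OASL, adjusted p = 0.553), and were not called.

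TRIM22 went from 6.06 to 7.12 (median 6.42) in control 1 to 5.67 to 6.45 (median 5.83) in the KD, a fall of 0.56 ± 0.07 (adjusted p = 0.00198) at a level close to the low-value limit. All its control 1 arrays were above that limit of 6, while its KD median was below it. TRIM22 thus met the filter mainly through the control arm, where it was higher. Its call and the lowest value of the range depend on that. MX1, which traps viral nucleocapsids, ran from 8.58 to 9.86 (median 8.93) in control 1 and from 8.28 to 9.30 (median 8.51) in the KD. The highest values of both arms came from replicate 2, and within replicates the fall was 0.48 ± 0.09 (adjusted p = 0.0168), whereas its neighbour MX2 differed by -0.01 (adjusted p = 0.973). XAF1, which counteracts the caspase inhibitor XIAP, ran from 9.66 to 10.77 (median 10.08) in control 1 and from 9.43 to 10.30 (median 9.57) in the KD, with a fall of 0.43 ± 0.08 (adjusted p = 0.0235).

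The cytosolic RNA sensors moved in the same direction. IFIH1, the sensor MDA5 of long double-stranded RNA, ran from 9.28 to 9.92 (median 9.69) in control 1 and from 8.97 to 9.45 (median 9.17) in the KD. It fell by 0.42 ± 0.06 to 74.6% of control (adjusted p = 0.00701), in every replicate. DDX58, which encodes the sensor RIG-I, fell by 0.18 ± 0.04 (adjusted p = 0.0484) and DHX58, their regulator LGP2, by 0.28 ± 0.06 (adjusted p = 0.0492). Both calls sat at the edge of the threshold, and DDX58 kept its call in 1 and DHX58 in 2 of the 12 fits that left out 1 array.

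Of the 2 other genes that fell, EPSTI1 ran from 7.57 to 8.12 (median 7.75) in control 1 and from 7.25 to 7.82 (median 7.46) in the KD. Its fall of 0.35 ± 0.04 (adjusted p = 0.00143) had nearly the same size in replicates 1, 2 and 3, at -0.37, -0.39 and -0.28. IFI35, an interferon-induced leucine zipper protein, fell by 0.27 ± 0.06 (adjusted p = 0.0492). Each of the 9 genes was below the control mean of its own replicate on all 6 KD arrays. A fit blocked by replicate favours such genes, and genes that were not called, such as OAS2, HERC5 and PARP14, were also below on all 6. For none of the 51 genes were all 6 KD arrays below, or all above, all 6 control arrays, which held for 0.736% and 0.375% of all clusters.

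**Figure D2:**
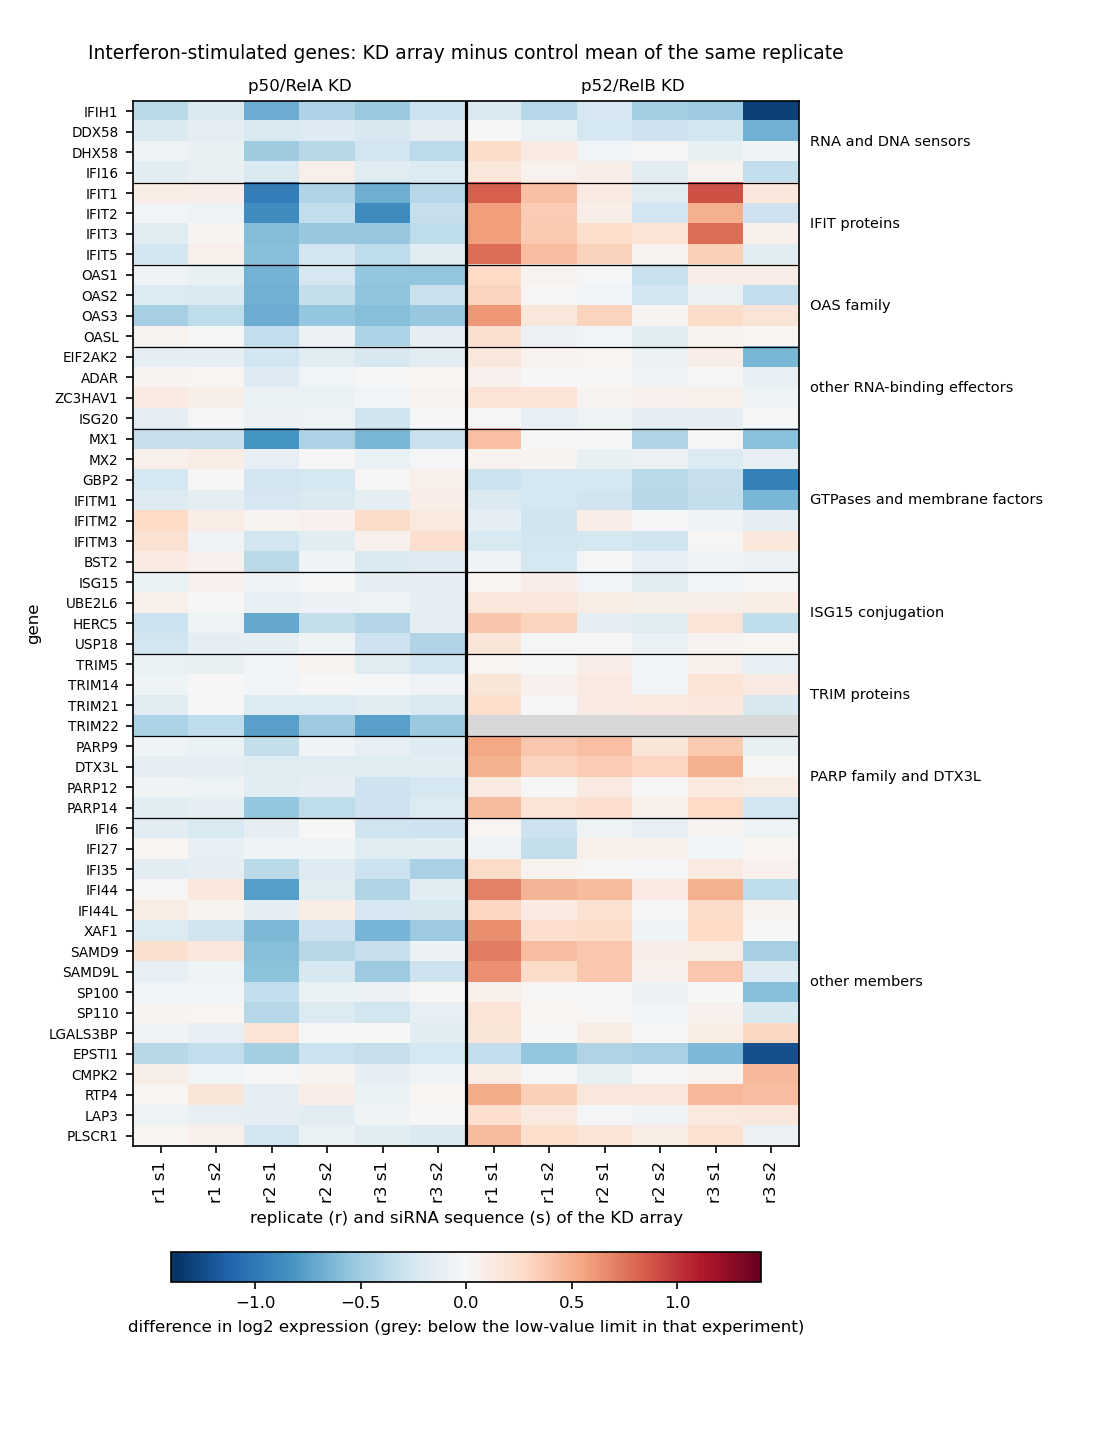
Difference between each KD array and the control mean of its own replicate on the log2 scale (colour, blue lower and red higher), for the 51 interferon-stimulated genes tested, grouped by role. Columns are the replicate (r) and siRNA sequence (s) of the KD array; p50/RelA KD columns are mostly blue, and p52/RelB KD columns are mixed, with IFIH1 at -1.31 and EPSTI1 at -1.23 on the array of sequence 2 in replicate 3.

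Differences of similar size were not called where their errors were larger. All 4 IFIT genes, whose family includes binders of foreign RNA ends that block translation, lay below 0, IFIT2 at -0.42, IFIT1 at -0.38, IFIT3 at -0.36 and IFIT5 at -0.26, with adjusted p between 0.0975 and 0.361. In replicate 1 the difference of IFIT1 was 0.10, while in replicates 2 and 3 it was -0.69 and -0.54. HERC5, the main ISG15 ligase, was at -0.33 (adjusted p = 0.13), SAMD9L at -0.30 (adjusted p = 0.0878), PARP14 at -0.28 (adjusted p = 0.0589), and EIF2AK2, the kinase PKR, at -0.18 (adjusted p = 0.0807). Close to 0 were ADAR, which edits double-stranded RNA (-0.02), the zinc finger antiviral protein gene ZC3HAV1 (0.00), RTP4 (0.01), IFITM3 (0.01) and ISG15 (-0.06). The highest difference was that of IFITM2 at 0.15 (adjusted p = 0.405), above its replicate's control mean on all 6 KD arrays.

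Over the 51 genes the median difference was -0.08 in replicate 1, -0.21 in replicate 2 and -0.20 in replicate 3, and 35, 47 and 46 genes were below 0. Each replicate of experiment 1 was a scan batch of its own, so these are also the within-batch values. Whether the KD difference differed between replicates was tested by a limma F-test. It called 0 of the 51 genes (0% of all clusters), with 2 at an unadjusted p below 0.05, and in p52/RelB KD 0 of 50 (0.00621% of all clusters), with 3. The control 1 arrays themselves spread widely for many of these genes, with SDs of 0.61 for IFIT1, 0.49 for MX1 and 0.40 for XAF1.

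The genes that fell were compared with their promoter windows. Windows were at hand for 7 of the 9, and 5 of the 7 held a κB match (71.4%), namely DDX58, IFIH1, MX1, OAS3 and XAF1. Of the 35 tested genes with a window that were not called, 3 held one (8.57%), namely BST2, IFITM3 and TRIM14, whose differences were -0.11, 0.01 and -0.03. The κB consensus occurs in 13.3% of all genes with a window. An ISRE core was found in 4 of the 7 genes that fell and in 26 of the 35 not called. These are counts over few genes, and binding data for p50 or RelA were not used here. They also rest on calls that were not stable. Of the 12 fits without 1 array, DDX58 stayed called in 1, XAF1 in 6 and MX1 in 10, and IFIH1 and OAS3 in all. Of the 3 fits without 1 replicate, OAS3 stayed called in 3 and the other genes with a κB match that fell in 0.

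The count of 9 depended on single arrays. It was 4 when either control 1 with sequence 2 in replicate 1 or the KD with sequence 1 in replicate 3 was left out. It was 5 when the array left out was the KD with sequence 2 in replicate 1, with sequence 1 in replicate 2 or with sequence 2 in replicate 3, or control 1 with sequence 1 in replicate 3. Calls over all clusters dropped too. The fits with a count of 4 called 93 and 75 clusters in either direction, and those with 5 called 90 to 134. With all arrays, 121 clusters were called lower and 36 higher. Without replicate 1, 2 or 3 it was 3, 3 and 2, while 0.116%, 0.164% and 0.252% of all clusters were called lower. IFIH1 stayed called in all 12 fits without 1 array and in 0 of the 3 without 1 replicate, and IFI35 stayed called in 1 of the 12.

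After p52/RelB KD the genes had no common direction. Of 50 tested, 4 fell (8%), 5 rose (10%) and 41 were not called, where 5.75% of all 16101 clusters tested were called lower and 3.93% higher. The median was 0.03, against 0.02 over all clusters. Of the 50 genes, 31 were above 0 and 19 below, where 41.9% of all clusters were below 0. The range was -0.60 to 0.38, and 23 genes had an unadjusted p below 0.05. EPSTI1, IFIH1, the guanylate-binding GTPase gene GBP2 and IFITM1 fell. IFIT3, RTP4, OAS3 and the gene pair DTX3L and PARP9, which encode a ubiquitin ligase and its ADP-ribosyltransferase partner, rose.

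The 4 genes that fell were lower with both siRNA sequences. EPSTI1 ran from 7.88 to 8.38 (median 8.02) in control 2 and from 7.07 to 7.67 (median 7.53) in the KD, and no KD array reached a control array. Its fall of 0.60 ± 0.11 (SE, n = 6 per arm, adjusted p = 0.00398) left 65.9% of control. Without the array that stood apart it was 0.49 ± 0.05 (adjusted p = 4.31e-05). IFIH1 ran from 9.72 to 9.88 (median 9.81) in control 2 and from 8.44 to 9.67 (median 9.38) in the KD. The value of 8.44 came from the array that stood apart; the fall was 0.52 ± 0.13 (adjusted p = 0.0269) with it and 0.38 ± 0.05 (adjusted p = 0.000361) without it. The arms did not overlap with or without that array.

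GBP2 ran from 7.20 to 7.47 (median 7.30) in control 2 and from 6.52 to 7.13 (median 6.99) in the KD, again with no overlap, and fell by 0.41 ± 0.09 (adjusted p = 0.0169). Without the array that stood apart the difference of GBP2 was -0.30 ± 0.03 (adjusted p = 7.21e-05). On all arrays, a second cluster of the same gene gave -0.26 ± 0.08 (adjusted p = 0.0548) and was not called. IFITM1, a membrane protein that hinders virus entry, ran from 12.01 to 12.34 (median 12.27) in control 2 and from 11.65 to 12.09 (median 11.86) in the KD. It fell by 0.34 ± 0.06 (adjusted p = 0.00284), and the arms overlapped through both KD arrays of replicate 1. Its chromosomal neighbours IFITM2 (-0.09, adjusted p = 0.375) and IFITM3 (-0.14, adjusted p = 0.199) were not called. Without the array that stood apart, IFITM3 and DDX58 passed too, each at -0.18 (adjusted p = 0.0183 and 0.0105). Of the 12 fits that left out 1 array, EPSTI1, IFITM1 and GBP2 stayed called in all and IFIH1 in 7. Of the 3 that left out a replicate, EPSTI1 and IFITM1 stayed called in 2, and IFIH1 and GBP2 in 1.

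Among the genes that rose, RTP4, a receptor transporter with antiviral activity, ran from 7.41 to 7.64 (median 7.59) in control 2 and from 7.78 to 8.11 (median 7.90) in the KD. All KD arrays lay above all control arrays, and the rise was 0.34 ± 0.05, to 127% of control (adjusted p = 0.00177). DTX3L ran from 9.63 to 9.80 (median 9.68) in control 2 and from 9.66 to 10.26 (median 10.06) in the KD, where the 1 KD array at control level was the one that stood apart. DTX3L rose by 0.33 ± 0.07 (adjusted p = 0.011) and PARP9, its divergent neighbour, by 0.29 ± 0.08 (adjusted p = 0.0474). OAS3 rose by 0.26 ± 0.07 (adjusted p = 0.0462) and IFIT3 by 0.38 ± 0.11 (adjusted p = 0.0418), and for both genes the arms overlapped. Of the 12 fits that left out 1 array, OAS3 stayed called in 3, IFIT3 in 2 and PARP9 in 1, and of the 3 that left out a replicate, OAS3 in 0 and the others in 1 each. RTP4 and DTX3L stayed called in all 12, and without 1 replicate RTP4 stayed called in 2 and DTX3L in 1 of the 3 fits.

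All KD arrays lay below all control arrays for 3 of 50 (EPSTI1, IFIH1 and GBP2; 3.17% of all clusters) and above for 1 (RTP4; 2.1% of all clusters). All 5 genes that rose held an ISRE core in a promoter window, as did the 3 genes that fell and had a window, while 22 of the 34 genes with a window that were not called held one.

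**Figure D3:**
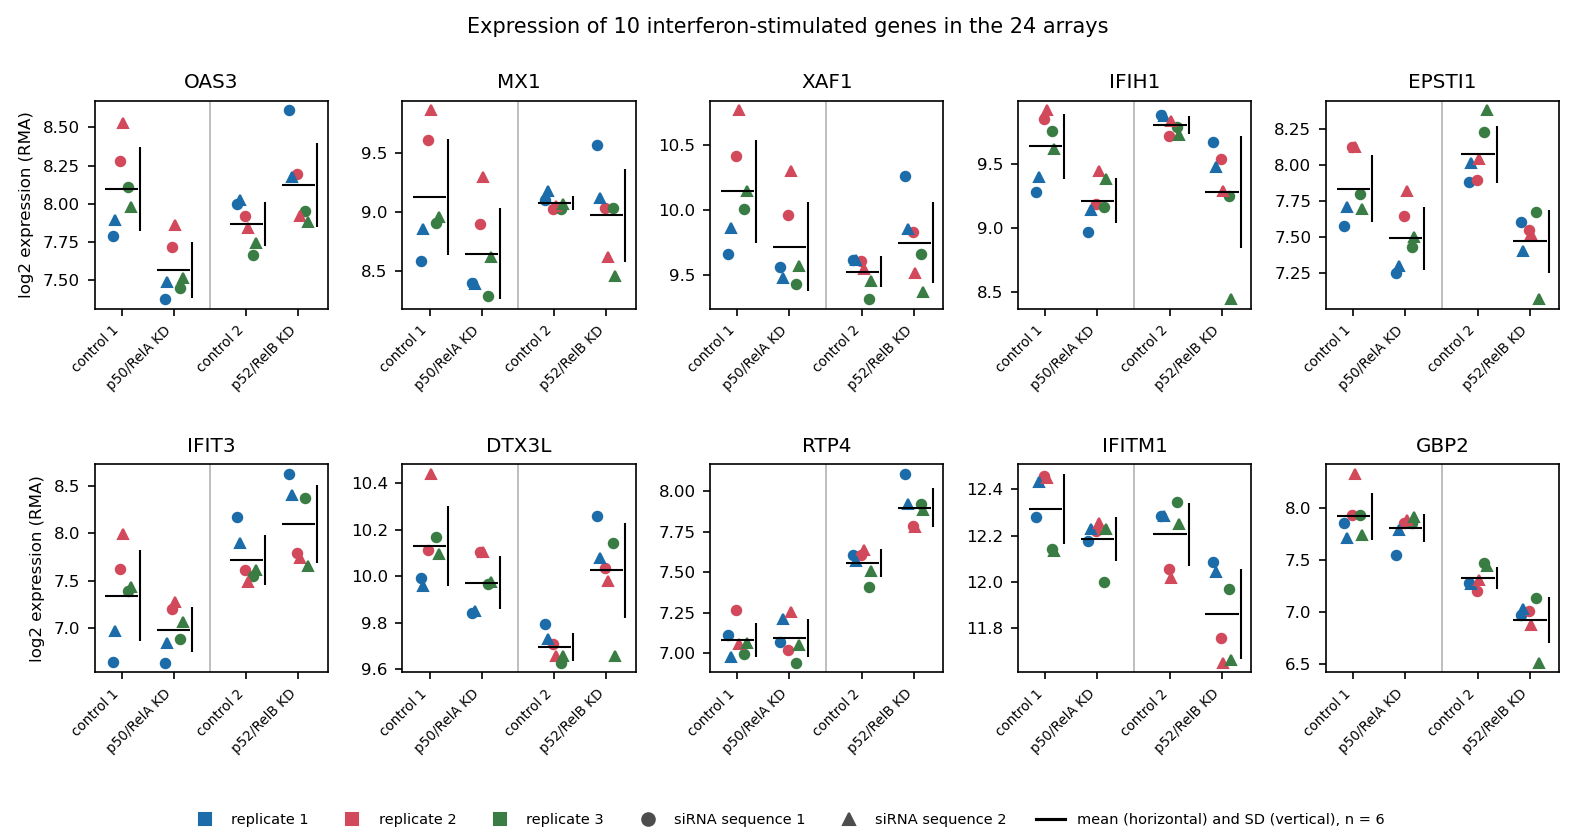
Log2 expression of 10 interferon-stimulated genes on each of the 24 arrays, by arm, with colour for the replicate, circles for siRNA sequence 1 and triangles for sequence 2; bars give the mean and the SD of 6 arrays. EPSTI1, IFIH1 and GBP2 in p52/RelB KD lie below, and RTP4 above, all arrays of control 2.

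More genes were called without the array that stood apart. Then 14 of 50 genes rose (28%; 7.19% of all clusters) and 6 fell (7.16% of all clusters), and the 9 genes called on all arrays remained among the 20. The 9 that joined the genes that rose were IFIT1 (0.45 ± 0.13), IFIT5 (0.38 ± 0.09), IFI44 (0.45 ± 0.07), IFI44L (0.18 ± 0.05), XAF1 (0.27 ± 0.08), SAMD9 (0.33 ± 0.08), SAMD9L (0.34 ± 0.07), PARP14 (0.24 ± 0.05) and PLSCR1 (0.24 ± 0.05; SE, 6 against 5 arrays). Leaving out any other array of experiment 2 gave between 2 and 3 genes higher and between 3 and 5 lower. Those fits called 1133 to 1674 of all clusters in either direction, where all arrays gave 926 lower and 633 higher. Without replicate 1, 2 or 3, the genes that rose numbered 0, 1 and 10 (0.95%, 0.981% and 6.41% of all clusters) and those that fell 1, 1 and 5 (1.81%, 1.92% and 6.32% of all clusters). Replicates 1 and 2 formed 1 scan batch, to which the last of these fits belongs, and replicate 3 the other; the median difference was 0.11, -0.02 and 0.01 in replicates 1, 2 and 3. All 9 of the genes called on all arrays also stayed called with sequence 1 alone, where 17 rose (34%; 7.14% of all clusters) and 5 fell (6.47% of all clusters).

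The sequence 2 arrays of this KD include the one that stood apart, and the values given here for sequence 2 contain it. With sequence 2 alone, RTP4 (0.31) was called higher, and EPSTI1 (-0.74), IFIH1 (-0.73), GBP2 (-0.52) and IFITM1 (-0.42) lower. The share of all clusters called in that fit is not given here, so these calls are not set against it. In the p52/RelB KD arm, 46 of 50 genes were lower with sequence 2 than with sequence 1, with a median of -0.17 against 0.00 over all clusters. The lowest were IFIT1 (-0.49 ± 0.16), MX1 (-0.48 ± 0.11), IFI44 (-0.47 ± 0.14), IFIT2 (-0.46 ± 0.14) and SAMD9L (-0.42 ± 0.09; SE, 3 arrays of each sequence). None was called by limma (lowest adjusted p = 0.506; 0% of all clusters), although 23 genes had an unadjusted p below 0.05. In control 2, 20 of 50 were higher with sequence 2 (median -0.01, 0 called, 0% of all clusters, 0 with an unadjusted p below 0.05). With sequences 1 and 2 the targets were at -1.37 and -1.32 for NFKB2 and -0.33 and -0.25 for RELB. In replicates 1, 2 and 3 the median KD difference of the genes was 0.19, 0.03 and 0.08 with sequence 1. With sequence 2 it was 0.05, -0.04 and -0.08, where the last value is that of the array that stood apart.

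In experiment 1 the genes were slightly higher with sequence 2 in both arms, 47 of 51 in control 1 (median 0.09) and 44 of 51 in p50/RelA KD (median 0.10). Limma called 0 in either arm (0% of all clusters each), with 10 and 8 genes at an unadjusted p below 0.05. Sequence 2 was a non-targeting siRNA in control 1 and targeting siRNAs in the KD, so the arms shared the number and not the sequence. The median KD difference was -0.18 with sequence 1 and -0.11 with sequence 2, each against all control 1 arrays. With 3 replicates and 2 sequences, an offset from the sequence and one from the arrays that carried it cannot be told apart.

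**Figure D4:**
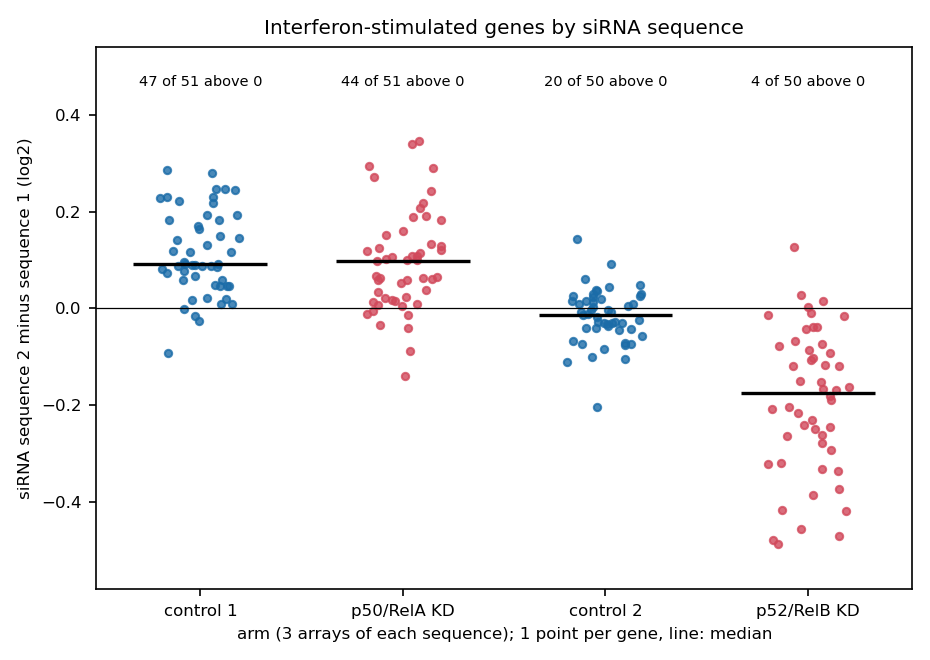
Difference between siRNA sequence 2 and sequence 1 on the log2 scale for each interferon-stimulated gene (1 point per gene, line at the median) in the 4 arms, with 3 arrays of each sequence. In p52/RelB KD, whose sequence 2 arrays include the one that stood apart, 4 of 50 genes lie above 0, against 20 of 50 in its own control 2.

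For part of the genes the KDs differed from each other. A limma fit over the 24 arrays tested whether the p52/RelB KD difference exceeded the p50/RelA KD difference. It did for 11 of 50 genes (22%; 1.9% of all 14647 clusters) and fell short of it for 0 (2.45% of all clusters), and 41 of the 50 were above 0. The median of this difference between differences was 0.18, against 0.01 over all clusters. OAS3, at -0.53 in p50/RelA KD and 0.26 in p52/RelB KD, had a difference of 0.79 ± 0.10 (adjusted p = 3.19e-05). IFIT3 followed at 0.73 ± 0.15 (adjusted p = 0.00618), XAF1 at 0.65 ± 0.13 (adjusted p = 0.00469), SAMD9L at 0.55 ± 0.14 (adjusted p = 0.0218) and DTX3L at 0.49 ± 0.09 (adjusted p = 0.00221). PARP14, PARP9, IFI35, RTP4, DHX58 and PARP12 lay between 0.24 and 0.43. All 4 genes of the group of PARP family genes and DTX3L, whose products modify proteins with ADP-ribose or ubiquitin, were among the 11. The count was 7 without replicate 2 and 2 without replicate 3 of experiment 1, and 5 without replicate 1 of experiment 2. The shares of all clusters called in these fits are not given here. Whether the lower counts are particular to these genes was therefore not shown.

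Without the array that stood apart, 21 of the 50 genes had a larger difference in p52/RelB KD (42%; 3.35% of all clusters), the 11 genes included, and the added ones included IFIT1 (0.83 ± 0.22), IFIT2 (0.69 ± 0.19), IFIT5 (0.64 ± 0.14) and MX1 (0.47 ± 0.14). EPSTI1 and IFIH1 were the 2 genes that fell in both KDs, and the difference between their KD differences was -0.26 (adjusted p = 0.298) and -0.10 (adjusted p = 0.826). The experiments had separate control arms, may have been normalized apart and share no scan batch, so dimer and experiment cannot be told apart in this comparison.

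**Figure D5:**
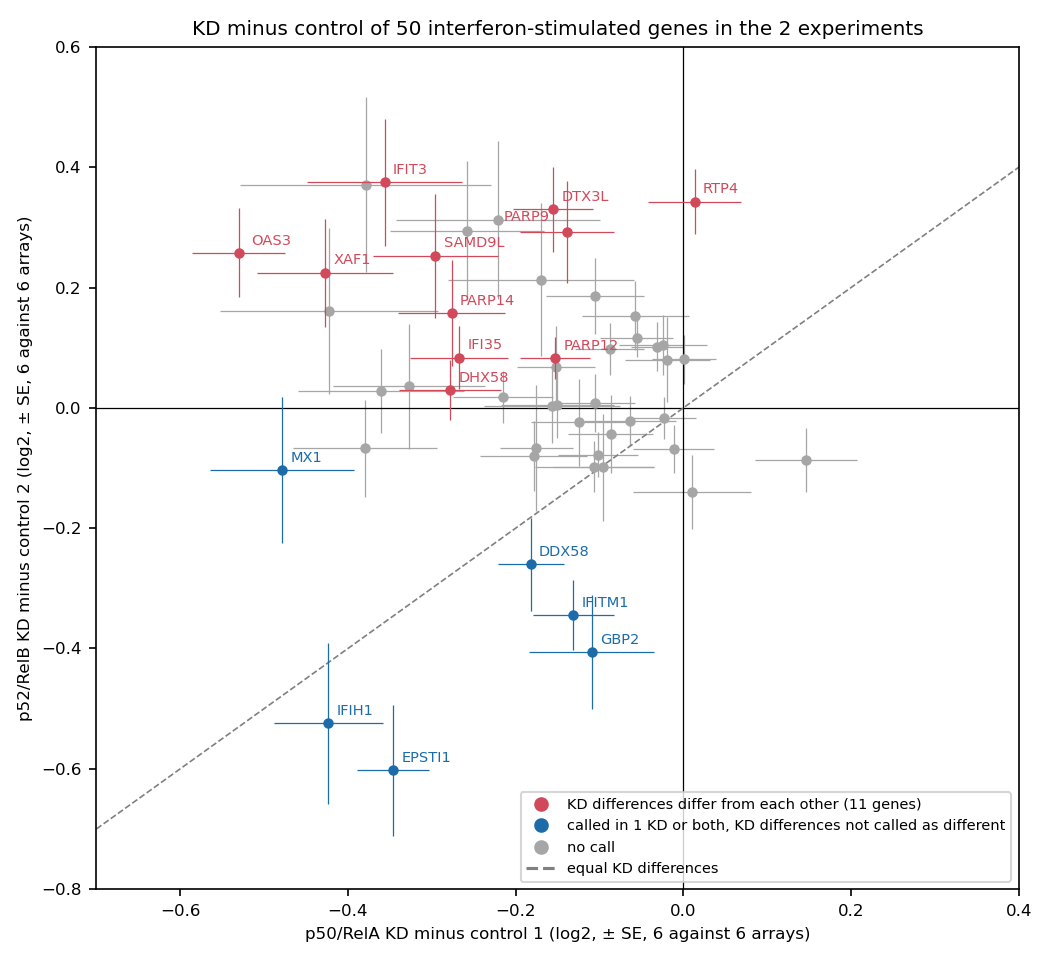
KD minus control difference of the 50 genes tested in both experiments, p50/RelA KD on the horizontal and p52/RelB KD on the vertical axis (log2, bars are SE, 6 against 6 arrays). Red marks the 11 genes called between KDs, which lie above the dashed line of equal differences (OAS3 by 0.79), blue marks other genes called in a KD, among them EPSTI1 and IFIH1, and grey marks genes with no call.

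By role, all 4 IFIT genes lay below 0 after p50/RelA KD (median -0.37) and above 0 after p52/RelB KD (median 0.33), with IFIT3 the only one called, in the second. The difference between KDs was called for IFIT3 and not for IFIT5 (adjusted p = 0.0513), IFIT1 (adjusted p = 0.0654) or IFIT2 (adjusted p = 0.122). The 4 RNA and DNA sensors tested lay below 0 in p50/RelA KD (median -0.23) and had a median of -0.14 in p52/RelB KD. The 7 GTPase and membrane factor genes tested were all below 0 in p52/RelB KD (median -0.10), with 2 called, and 5 of 7 were below 0 in p50/RelA KD. For the ISG15 system, which attaches the ubiquitin-like protein ISG15 to other proteins, 0 of 4 genes were called in either KD; UBE2L6, its conjugating enzyme, had an adjusted p of 0.0349 in p52/RelB KD at 0.12, short of the 10% needed.

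The genes that start the interferon response were examined from lists. Of 10 interferon genes listed, 9 had a cluster and 3 were tested, the lambda interferons IFNL1, IFNL2 and IFNL3, and limma called 0 in either KD; IFNB1 was at 3.80 in control 1 and 4.49 in control 2, under the low-value limit. Of 16 receptor and signalling genes tested, 0 were called in p50/RelA KD, and IRF9 was at -0.17 (adjusted p = 0.0765). In p52/RelB KD IFNGR2, a chain of the interferon gamma receptor, fell by 0.30 ± 0.04, and JAK1 (0.19 ± 0.04), JAK2 (0.20 ± 0.06), TYK2 (0.25 ± 0.04) and the phosphatase gene PTPN6 (0.17 ± 0.04) rose. IRF9 was at -0.08 there (adjusted p = 0.36).

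Of 7 interferon regulatory factors tested, IRF1 fell by 0.35 ± 0.07 (adjusted p = 0.0207) and IRF5 by 0.27 ± 0.04 (adjusted p = 0.0104) in p50/RelA KD. IRF1 activates many interferon-stimulated genes and was itself at -0.03 (adjusted p = 0.72) in p52/RelB KD. There, IRF5 fell by 0.23 ± 0.04 (adjusted p = 0.00246) and IRF2, a repressor at the same sites, rose by 0.18 ± 0.05 (adjusted p = 0.0395). IRF7, the amplifier of interferon alpha genes, was at -0.11 in p50/RelA KD and 0.08 in p52/RelB KD and was not called in either. Of 14 tested sensors and adaptors outside the list of 55, 0 were called in p50/RelA KD, and STING1 (-0.24 ± 0.03) and UNC93B1 (-0.18 ± 0.04) fell in p52/RelB KD.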

How the data were processed

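The authors deposited log2 RMA values of Affymetrix Human Gene 1.0 ST arrays, for which the sources used here give no RMA version. Of the 24 arrays, 6 were in each arm, and this number limits the precision. RMA compresses large differences and does not say whether a gene is detected. Of 33297 clusters, 19460 have 1 gene symbol in the platform annotation used, 1754 have several and 12083 have none here; only the first were used. Some genes of the lists are not analysed here. Symbols were updated through the GRCh38.p14 gene table, by which DDX58 was matched to RIGI.

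KD and control were compared by limma 3.58.1 (lmFit, eBayes) in R 4.3.3, blocked by replicate, over clusters at 6 or more in more than 6 of the 12 arrays of an experiment. Calls needed a Benjamini-Hochberg adjusted p below 0.05, adjusted over all clusters tested, and a difference of at least 10%. Limma replaces the plain test of the study's methods, which was run as an alternative. The members, lists and tests were chosen with earlier results of these data known. Members called in a KD or between KDs were named with values, and the others by difference or range; in the other lists IRF9, IRF1 and IRF7 were named always and other genes if called; where a gene had several clusters, the one with the highest mean was used. The fits were tested on simulated data. Replicates were paired: control and KD deviations of the same replicate correlated at 0.448, 0.195 and 0.251 in experiment 1 and 0.574, 0.268 and 0.377 in experiment 2.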

Additional observations from a re-analysis of the deposited data

Results flagged for a closer look

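In 4 of 70 sets of 6 arrays checked, 1 array lay far from the other 5, measured by its gap to the nearest array over the range of the set; chance gives about 1 in 20. IFIH1 was at 8.44 in p52/RelB KD with sequence 2 in replicate 3, with the next array at 9.25. IFITM1 was at 12.0002 in p50/RelA KD with sequence 1 in replicate 3, with the next at 12.2. GBP2 was at 8.33 in control 1 with sequence 2 in replicate 2, with the next at 7.93, and at 7.54 in p50/RelA KD with sequence 1 in replicate 1, with the next at 7.79.

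For 11 genes the p52/RelB KD difference exceeded the p50/RelA KD difference in the limma fit over 24 arrays. The log2 values were 0.79 for OAS3, 0.73 for IFIT3, 0.65 for XAF1, 0.55 for SAMD9L, 0.49 for DTX3L, 0.43 for PARP14 (adjusted p = 0.031), 0.43 for PARP9 (adjusted p = 0.0215), 0.35 for IFI35 (adjusted p = 0.0141), 0.33 for RTP4 (adjusted p = 0.0188), 0.31 for DHX58 (adjusted p = 0.0304) and 0.24 for PARP12 (adjusted p = 0.00997). Of these, OAS3, XAF1, IFI35 and DHX58 fell in p50/RelA KD, and OAS3, IFIT3, DTX3L, PARP9 and RTP4 rose in p52/RelB KD. SAMD9L, PARP14 and PARP12 were called in neither KD alone.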

How the results depend on the processing

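Counts of called genes depended on the model and on single arrays, while the median difference of -0.15 in p50/RelA KD stayed between -0.19 and -0.11 under every setting tried. Without the replicate block, the genes lower in p50/RelA KD numbered 0 (0.334% of all clusters) and those higher in p52/RelB KD 2 (2.17% of all clusters). Those differing between KDs numbered 3. The block or pairing changed no call between siRNA sequences. The methods' test on the deposited values gave 0 lower in p50/RelA KD (0.102% of all clusters). In p52/RelB KD it gave 1 lower (1.99% of all clusters) and 1 higher (1.5% of all clusters). On values adjusted for replicate, the same test gave 2 higher in p52/RelB KD. With KD sequence 1 alone, 4 were lower in p50/RelA KD and 17 higher in p52/RelB KD (median 0.11), and 20 differed between KDs. In that p52/RelB KD fit 7.14% of all clusters were called higher. With sequence 2 alone the 3 counts were 0, 1 and 1. The genes higher in p52/RelB KD numbered 3 with the scan batch as block, 2 without the low-value filter and 3 with sequences averaged. Leaving out single arrays or replicates gave 2 to 10 lower in p50/RelA KD, 1 to 6 lower and 0 to 14 higher in p52/RelB KD, and 2 to 21 differing between KDs. Where a count in this paragraph has no share of all clusters beside it, it was not set against 1. The value of 21 without the array that stood apart, and the fit that included clusters with several symbols, were chosen after seeing the data. Reversed signs were seen for genes not called: RTP4 in p50/RelA KD (-0.0668 with sequence 1 alone; -0.0282 to 0.0472 with replicates or arrays left out); in p52/RelB KD, MX1 (0.14) and IRF1 (0.00732) with sequence 1 alone and PARP14 with sequence 2 alone (-0.00235). With replicates or arrays left out, the difference of DHX58 in p52/RelB KD ran from -0.0468 to 0.0855 and the difference of IRF7 in p52/RelB KD from -0.0234 to 0.16. The cause was not tested.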
